A study of Mus musculus with 10 samples.

Results

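The MYC and MAX network genes were described in E14, a mouse embryonic stem cell line, across 3 RNA-seq replicates. The network was taken as 10 genes, Myc, Mycn, Mycl, Max, Mxd1, Mxd3, Mxd4, Mxi1, Mnt and Mga, found by matching their symbols in the GENCODE vM21 annotation to the Ensembl gene IDs of the deposited tables. All 10 matched, of 55487 genes in each table. The series also holds 7 R-loop samples (MapR and BisMapR, made by different capture and conversion steps) of the same line, which were not analysed here. The 3 RNA-seq samples had no treatment named in the labels and were grown in medium with 15% FBS, LIF, 3 µM of a GSK inhibitor and 1 µM of a MEK1/2 inhibitor, conditions that the R-loop samples shared. There was therefore 1 condition, no group to compare it with, and the spread over replicates as the only error. The labels do not say whether the replicates were separate cultures, so this spread may be technical.

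MYC, MYCN and MYCL are basic helix-loop-helix leucine zipper transcription factors that bind DNA as dimers with MAX and drive genes of growth, ribosome production and metabolism. MAX also pairs with the MXD proteins, MXI1 and MNT, which bring the SIN3 corepressor to the same sites, and with MGA, a large protein that carries MAX into a variant Polycomb complex, PRC1.6. In mouse embryonic stem cells MYC proteins are known for supporting self-renewal, and the MGA and MAX arm for holding germline genes down.

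Dimers of the network recognize the E-box, spelled CACGTG, which reads the same on both strands. RefSeq promoter windows (GRCm38.p6, 250 bases before to 50 after each annotated start) matched 9 of the 10 members, with 11 windows in all, and were not matched for Myc. An E-box occurred in the windows of 3 of these 9 genes, Max, Mnt and Mxd4. The share was 9.16% among protein-coding genes with a window and 12.7% among those with a mean TPM of at least 1; TPM is a transcript abundance scaled by length and then to a total of 1000000 in each library. The 3 windows are printed 5′ to 3′ on the gene's strand, because they show where the network's own binding sequence stands in its genes, with the E-box in capitals.
Max, chr12:76962199-76962498, minus strand: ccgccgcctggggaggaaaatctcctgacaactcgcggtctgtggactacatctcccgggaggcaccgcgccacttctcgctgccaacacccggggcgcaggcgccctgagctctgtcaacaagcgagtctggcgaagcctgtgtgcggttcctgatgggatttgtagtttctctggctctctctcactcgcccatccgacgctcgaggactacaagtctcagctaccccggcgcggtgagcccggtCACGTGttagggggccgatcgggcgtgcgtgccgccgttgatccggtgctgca
Mnt, chr11:74830674-74830973, plus strand: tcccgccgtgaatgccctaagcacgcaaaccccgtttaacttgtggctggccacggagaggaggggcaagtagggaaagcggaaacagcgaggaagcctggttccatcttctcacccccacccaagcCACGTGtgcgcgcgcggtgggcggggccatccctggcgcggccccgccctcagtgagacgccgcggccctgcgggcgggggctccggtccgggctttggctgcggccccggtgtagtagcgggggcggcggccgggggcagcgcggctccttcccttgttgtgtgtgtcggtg
Mxd4, chr5:34187661-34187960, minus strand: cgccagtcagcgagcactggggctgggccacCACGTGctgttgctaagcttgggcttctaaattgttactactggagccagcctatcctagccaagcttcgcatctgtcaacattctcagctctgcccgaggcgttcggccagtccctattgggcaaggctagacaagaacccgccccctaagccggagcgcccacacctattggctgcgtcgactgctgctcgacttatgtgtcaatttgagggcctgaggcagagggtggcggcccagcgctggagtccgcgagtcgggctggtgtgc
The first base of the E-box lay 3 bases upstream of the start in Max, 123 in Mnt and 219 in Mxd4. A variant of the E-box, CACGCG or its reverse complement CGCGTG, with overlapping matches counted, occurred in the windows of Mga and Mycl. This was 22.2% of the 9 genes. The share was 14.2% among protein-coding genes with a window and 21.6%, near the members' own, among those with a mean TPM of at least 1. These matches describe letters in a window and no binding was measured.

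The network was expressed very unevenly. Of the 10 genes, 8 averaged 1 TPM or more, against a background of 19.8% of all genes and 44.1% of protein-coding genes. Mga was highest at 38.96 ± 11.9 TPM (SD, n = 3), followed by Max at 17.9 ± 6.80, Mycn at 8.12 ± 2.19 and Mxi1 at 5.02 ± 1.27 TPM (SD, n = 3). Myc, the gene that names the network, was lowest at 0.21 ± 0.0458 TPM (SD, n = 3), with Mxd4 just above it. By mean TPM, Mga ranked 691 among the 21974 protein-coding genes, Max 1653 and Myc 12127. Mxd1 and Mxd3 lay on the threshold itself, at mean TPM of 1.05 and 1.003, and only 5 members were at or above 1 TPM in every replicate.

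**Figure D1:**
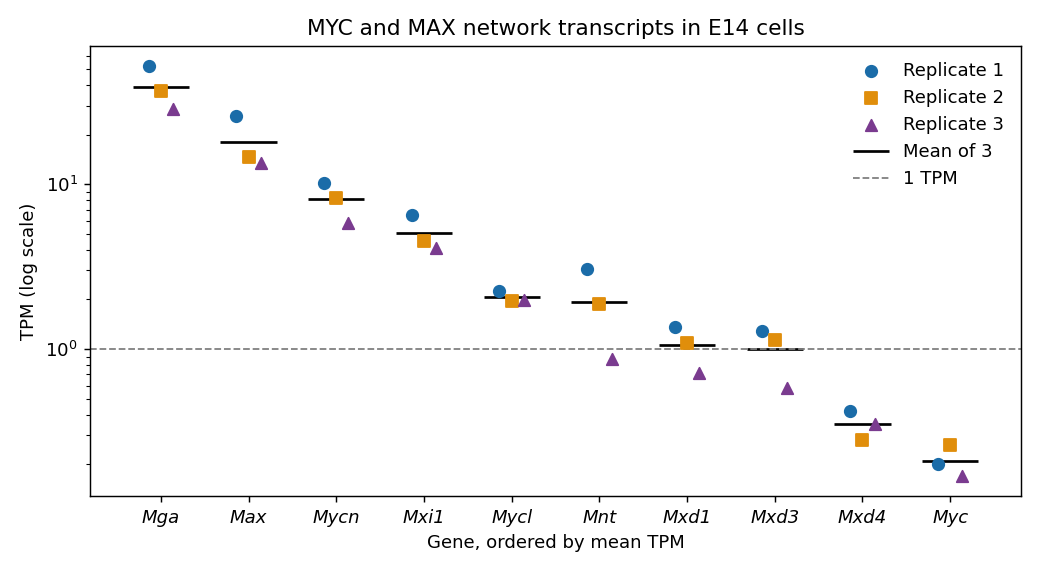
TPM of the 10 network genes on a log axis, with 1 marker per replicate, a bar for the mean of 3 and a dashed line at 1 TPM. Mga lies between 28.4 and 51.9 TPM and Myc between 0.17 and 0.26 TPM, and replicate 3 is the lowest or next to lowest of the 3 for each gene.

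Replicate 1 was sequenced to 11420425 estimated counts, replicate 2 to 6467405 and replicate 3 to 5787357, so replicate 1 was the deepest. Replicate 3 stood apart from the other pair in its differences beyond counting noise. The chi-square per degree of freedom was 6.64 for replicates 1 and 2, 29.2 for 1 and 3, and 20.4 for 2 and 3. TPM of genes in general was highest in replicate 1 and lowest in replicate 3, with a median log2(TPM + 1) over expressed protein-coding genes of 3.02, 2.72 and 2.43 in replicates 1, 2 and 3, so a difference of that size in a member is shared with most genes. The labelled cell type was checked against its markers. All 10 of 10 pluripotency genes reached a mean TPM of 1, and Pou5f1 and Nanog had 149 ± 21.7 and 183 ± 29.9 TPM (SD, n = 3). Of 8 feeder fibroblast markers 1 did, Thy1 at 2.50 ± 1.15 TPM (SD, n = 3), their summed level ran from 1.35 to 3.45 TPM, and Col3a1, Postn, Dcn and Lum had 0 counts in every replicate. None of 12 lineage markers reached a mean TPM of 1, with summed levels of 1.72 to 3.07 TPM. The highest of them, Eomes and Sox1, lay just under it, at 0.953 ± 0.106 and 0.733 ± 0.235 TPM (SD, n = 3). Eomes had 78, 62 and 52 counts, Sox1 122, 67 and 44, and Gata4, at 0.45 ± 0.187 TPM (SD, n = 3), 47, 19 and 12. These genes were therefore detected in each replicate.

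Among the MYC paralogs, the activating arm, Mycn carried most of the transcripts. Mycn (ENSMUSG00000037169, chromosome 12, 12936093 to 12941914, minus strand, in the GRCm38 build used for all genes here) had 10.21, 8.30 and 5.84 TPM in replicates 1, 2 and 3, from 653, 376 and 262 counts. Mycl (ENSMUSG00000028654, chromosome 4, 122995652 to 123002485, plus strand) had 2.25, 1.96 and 1.99 TPM, from 195, 120 and 99 counts. Myc (ENSMUSG00000022346, chromosome 15, 61985391 to 61990374, plus strand) had 0.20, 0.26 and 0.17 TPM. The 3 genes did not overlap in TPM, and in every replicate Mycn was highest and Myc lowest. Mycn made up 77.5% ± 4.01 (SD, n = 3) of their summed TPM. Its level was 3.90 ± 0.852 times that of Mycl and 39.1 ± 10.4 times that of Myc (SD, n = 3).

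Myc rested on few counts, 12, 8 and 5 in replicates 1, 2 and 3. As a share of the library these were 1.05, 1.24 and 0.864 CPM, the count divided by the library total and multiplied by 1000000, with no scaling by length, with exact Clopper-Pearson 95% intervals of 0.543 to 1.84, 0.534 to 2.44 and 0.281 to 2.02 CPM. The intervals cover counting error only, since copies made by PCR are not independent molecules. All 3 values were above 3 counts, the limit that a count of 0 allows, which corresponds to 0.263, 0.464 and 0.518 CPM. Myc was therefore detected in each library, and the 3 intervals overlap. Pvt1, the noncoding gene next to Myc on the same chromosome and strand, had a higher level than Myc in each replicate, at 3.84, 2.66 and 2.10 TPM from 161, 56 and 46.3 counts.

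Max (ENSMUSG00000059436, chromosome 12, 76937269 to 76962201, minus strand), the shared partner, had 25.75, 14.53 and 13.49 TPM from 678, 277 and 272 counts. Replicate 1 was the high one, and the other 2 were close together. Max exceeded Mycn in 3 of 3 replicates, by 2.19 ± 0.399 times (SD, n = 3), and the ratio of Max to the 3 MYC paralogs together was 1.70 ± 0.327 (SD, n = 3). With the longest annotated transcript as length, a scaling chosen after seeing the data, these ratios were 1.29 ± 0.240 to Mycn and 1.01 ± 0.185 to the paralogs (SD, n = 3), so Max did not stand above the paralogs under that scaling. Before any scaling by length, Max had 49.7 ± 8.60 CPM and the paralogs together 72.2 ± 7.83 CPM (SD, n = 3), and in replicate 2 Max had 42.8 and Mycn 58.1 CPM. Against all 9 of its possible partners in the list, Max was lower, at 0.302 ± 0.0386 of their summed TPM (SD, n = 3), a log2 ratio of -1.73 ± 0.19 (SD, n = 3). That sum, 58.7 ± 17.2 TPM (SD, n = 3), was mostly Mga, at a mean of 38.96 TPM, part of it from noncoding records, as given below. Beside Max at 17.9 TPM, the MYC paralogs summed to 10.4 ± 2.33 and the 5 antagonists other than Mga to 9.35 ± 3.02 TPM (SD, n = 3). The ratio of Max to its partners without Mga was not computed, so 0.302 describes a sum led by Mga. Transcript ratios say nothing of protein amounts, which were not measured. Gm47218, a record whose annotation awaits experimental evidence, lies inside Max on the same strand, at 1.12 ± 0.562 TPM (SD, n = 3), and overlaps it by 1319 bases, so the Max value is uncertain to that extent. Mxd1 shares 2364 bases with the same-strand record Gm44292, at 0.183 ± 0.0306 TPM (SD, n = 3).

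The MXD genes, which compete with MYC for MAX, were low except for Mxi1. Mxi1 (ENSMUSG00000025025, chromosome 19, 53310518 to 53375810, plus strand), also known as a MAX interactor of the MXD family, had 6.47, 4.52 and 4.08 TPM from 399, 198 and 166 counts. Mxd1 (ENSMUSG00000001156, chromosome 6, 86647042 to 86669161, minus strand) had 1.35, 1.09 and 0.71 TPM from 147, 87 and 55 counts. Mxd3 (ENSMUSG00000021485, chromosome 13, 55325168 to 55329823, minus strand) had 1.29, 1.14 and 0.58 TPM from 44, 27 and 15 counts. Replicate 3 fell below 1 TPM for both Mxd1 and Mxd3, whose ranges overlapped almost entirely. Mxd4 (ENSMUSG00000037235, chromosome 5, 34173883 to 34187720, minus strand) had 0.42, 0.28 and 0.35 TPM from 44, 20 and 23 counts. The end of Mxd3 overlaps Prelid1, a gene of the opposite strand at 58.9 ± 10.3 TPM (SD, n = 3), by 105 bases, and since the use of strand in the counting is not stated, the Mxd3 value is uncertain to that extent. The 4 genes summed to 7.43 ± 1.94 TPM (SD, n = 3), most of it from Mxi1.

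Mnt (ENSMUSG00000000282, chromosome 11, 74830920 to 74845725, plus strand), a MAX partner that represses the same targets, had 3.04, 1.87 and 0.87 TPM from 248, 120 and 64 counts. Its spread over replicates was the widest of the 10, with an SD of 56.4% of its mean, and the narrowest was that of Mycl at 7.72%. Its mean of 1.93 TPM became 2.46 TPM without replicate 3 and 1.37 TPM without replicate 1.

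Mga (ENSMUSG00000033943, chromosome 2, 119897228 to 119969581, plus strand) had 51.85, 36.61 and 28.42 TPM from 5962, 3076 and 2466 counts. It exceeded Max in 3 of 3 replicates, by 2.21 ± 0.269 times (SD, n = 3), and held 80.7% ± 0.411 (SD, n = 3) of the summed TPM of the 6 antagonists. This level depends on which transcripts the reads were given to. The tables list 15 transcripts for Mga, 5 of them coding, from 649 to 13931 nt, and the shortest coding one has 6995 nt. The deposited mean transcript length, which the estimator weights by abundance, was 4378, 4571 and 4704 nt in replicates 1, 2 and 3, below every coding transcript. By that arithmetic at least 41.2, 38.2 and 36.1% of the Mga TPM in these replicates was assigned to shorter records annotated as retained introns or processed transcripts. At most 30.5, 22.6 and 18.2 TPM could then belong to coding transcripts, beside 25.75, 14.53 and 13.49 TPM for all transcripts of Max. The values for Mga are upper limits, and its coding level itself was not given by the gene tables.

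**Figure D2:**
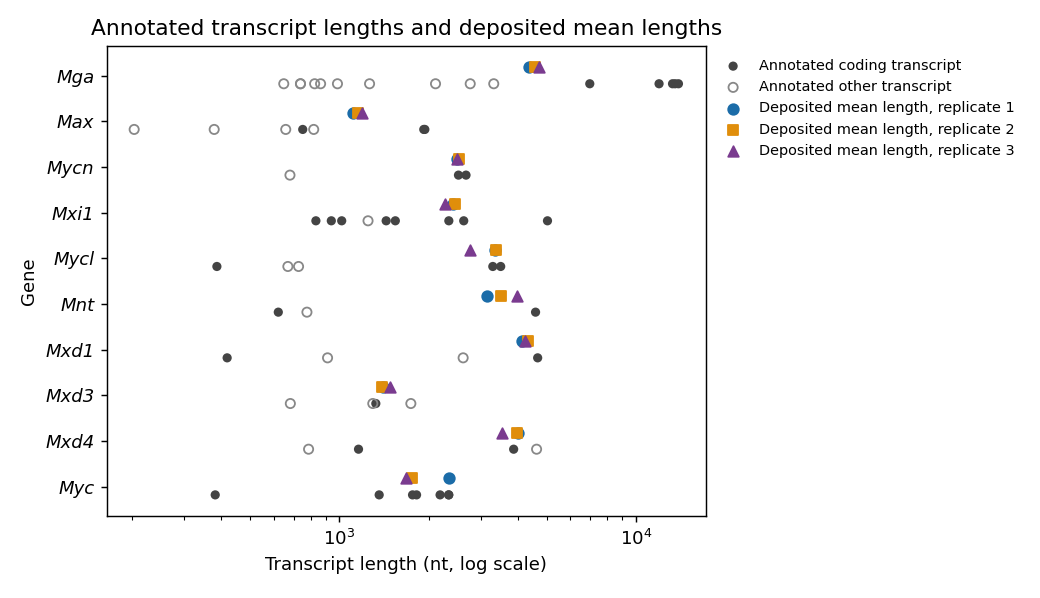
Transcript length on a log axis for each network gene: filled grey circles are annotated coding transcripts, open circles other annotated transcripts, and coloured markers the deposited mean length in each replicate. For Mga the mean lengths of 4378 to 4704 nt lie below the shortest coding transcript of 6995 nt.

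No other member had so wide a gap between its mean length and its coding transcripts. Mycn, with mean lengths of 2495, 2531 and 2497 nt, stayed close to its shorter coding transcript of 2522 nt. Max, at 1108, 1151 and 1195 nt, lay between its coding transcripts of 752 and 1926 nt, and the mixture behind such a mean cannot be read from it. The mean length of Mnt was 3146, 3519 and 3987 nt beside a main coding transcript of 4590 nt. That of Mycl was 3340 and 3369 nt in replicates 1 and 2 and 2748 nt in replicate 3. For Myc it was 2338, 1764 and 1678 nt, estimates that rest on 5 to 12 counts.

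Set in order of mean TPM, the members ran Mga, Max, Mycn, Mxi1, Mycl, Mnt, Mxd1, Mxd3, Mxd4 and Myc. Ranges over replicates overlapped in 4 of the 9 neighbouring pairs, Mycn with Mxi1, Mycl with Mnt, Mnt with Mxd1, and Mxd1 with Mxd3. In 7 of the 9 pairs the order was the same in 3 of 3 replicates, Mycn over Mxi1 and Mnt over Mxd1 among them. The exceptions were Mycl with Mnt and Mxd1 with Mxd3, which changed order between replicates, so these neighbours could not be ranked. No test was run on the order, since no exact test on 3 paired values can reach a p of 0.05. Mxd4 lay above Myc in each replicate, but by 1.08 times in replicate 2 on 20 and 8 counts, which does not order them at this depth.

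As shares of the network's summed TPM, Mga made up 50.9% ± 0.881, Max 23.2% ± 2.31, Mycn 10.7% ± 0.963 and Mxi1 6.64% ± 0.507 (SD, n = 3). The remaining 6 genes were each under 3% on average. The 6 antagonists summed to 48.3 ± 14.9 TPM and the 3 MYC paralogs to 10.4 ± 2.33 TPM (SD, n = 3). Their ratio was 5.09, 4.33 and 4.38 in replicates 1, 2 and 3, a log2 ratio of 2.20 ± 0.13 (SD, n = 3). The ratio turned on Mga alone: without it the other 5 antagonists stood at 0.993, 0.846 and 0.824 of the MYC paralogs, below them in each replicate. Dividing counts by the longest annotated transcript of each gene lowered the ratio to 1.94 ± 0.118 (SD, n = 3) and the share of Mga to 33.9% ± 0.463 (SD, n = 3). Under that scaling Mycn rose to 19.9% ± 1.61 of the network (SD, n = 3), and the order of the 10 genes was as before.

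**Figure D3:**
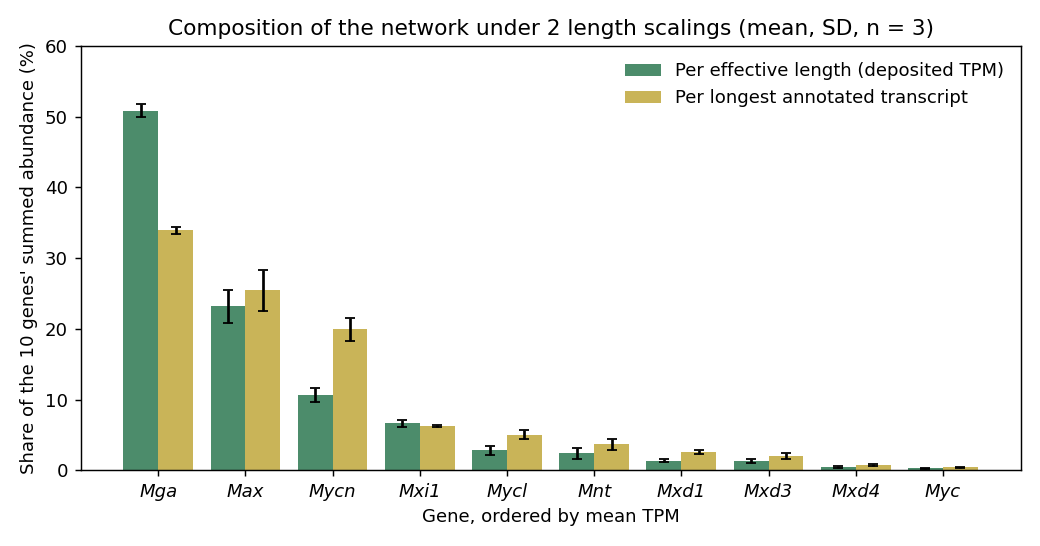
Share of each gene in the summed abundance of the network, in percent, as the mean with SD bars over 3 replicates, per effective length (green) and per longest annotated transcript (yellow). Mga has 50.9% under the first scaling and 33.9% under the second, while Max has 23.2% and 25.5%.

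The replicates were then compared gene by gene on counts, with library sizes scaled by TMM, which removes the shift that most genes share. Mga had 499.5, 463.5 and 464.5 scaled CPM in replicates 1, 2 and 3, so on this scale its 3 values were close together. Max had 56.8, 41.7 and 51.2, with replicate 2 the low one, and Mycn had 54.7, 56.7 and 49.4. Mnt had 20.8, 18.1 and 12.1, with replicate 3 the low one. In edgeR's goodness-of-fit test, which asks whether a gene's spread exceeds the trend of all genes at its abundance, 0 of the 9 members passed at an adjusted p under 0.05, where 1.84% of the 12577 genes tested did. At an unadjusted p under 0.05 the count was also 0, with a background of 6.96%. The smallest unadjusted p was 0.117, that of Mnt, with an adjusted p of 1.00 for each of the 9 members by edgeR. Myc did not pass the filter on low counts, and with the filter lifted its unadjusted p by edgeR was 0.931. Without replicate 3 the smallest unadjusted p by edgeR was 0.0296, that of Max, with an adjusted p of 0.999. Leaving out replicate 1, 2 or 3 also gave 0 members called, with backgrounds of 0.709%, 0.474% and 0.683% of the genes tested.

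Replicate 3 differed from the other pair by gene length. In the quartile of shortest genes tested the median log2 difference between replicate 3 and the mean of replicates 1 and 2 was 0.21, and in the quartile of longest genes -0.16. Among the 9 members 6 were lower in replicate 3, against 49.6% of all genes tested, and the median difference was -0.05. Mnt fell by 0.69 and Mxd3 by 0.45 on this log2 scale, both below the median of their length quartile, while Mxd4 was higher by 0.38 on counts of 44, 20 and 23. None of these 3 passed the test above. These differences are under 2-fold, and that test called only 3 of 50 simulated 2-fold changes, so it could hardly detect them. The part of gene length in the members' differences was not tested beyond a fit corrected for length, in which 0 of 9 members were called by edgeR, with a background of 1.47%.

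**Figure D4:**
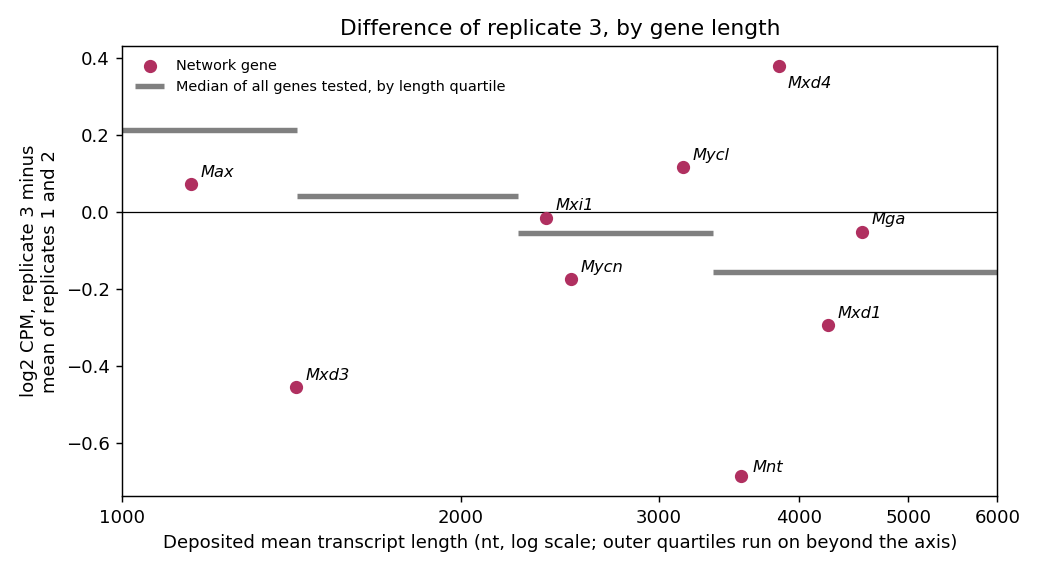
Log2 difference in scaled CPM between replicate 3 and the mean of replicates 1 and 2, against deposited mean transcript length on a log axis, for the 9 members tested (points) and the median of all genes tested in each length quartile (grey bars). Mnt lies lowest at -0.69 and Mxd4 highest at 0.38, while the bars go from 0.21 for short to -0.16 for long genes.

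All 30 estimated counts of the members were whole to within 0.005, compared with 82.4% of the values above 0 in the tables. No fractional assignment of reads between a member and another gene was thus visible, unlike in the list of MYC-activated targets, where 46.2% of values were whole. Many of those targets, Npm1 and Ptma among them, have processed copies elsewhere in the genome. The part of such copies in the fractional counts was not tested. Fractional counts make the targets' levels uncertain in this respect. Few counts for Myc and mixed transcripts for Mga are limits that whole counts do not remove.

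The genes around the network were read from 9 lists of 114 distinct genes, of which 104 averaged 1 TPM or more. The background for this and for each list count below is the 44.1% of protein-coding genes. Each list median is over all genes of the list, beside 0.53 ± 0.11 for all protein-coding genes (SD, n = 3). The parallel MLX arm, whose factors share MXD1, MXD4 and MNT with MAX and respond to glucose, had 3 of 3 genes at that level: Mlx at 9.92 ± 1.65, Mlxip at 2.23 ± 1.17 and Mlxipl at 1.08 ± 0.657 TPM (SD, n = 3). Mlx was below Max in each replicate. Of the 12 partners of MGA and MAX in PRC1.6, 11 had a mean TPM of at least 1, with a median log2(TPM + 1) of 4.36 ± 0.244 (SD, n = 3), beside 2.72 ± 0.295 for all protein-coding genes at that level. Cbx3, a heterochromatin protein gene, was highest at 69.7 ± 16.1 TPM, Pcgf6, which defines the complex, had 10.6 ± 2.02 and L3mbtl2 7.32 ± 1.82 TPM (SD, n = 3). The DNA-binding subunit gene E2f6 was low, at 2.29 ± 0.719 TPM, and of the paired E3 ligase genes Rnf2 had 17.98 ± 2.61 and Ring1 0.76 ± 0.0436 TPM (SD, n = 3). By mean TPM, Cbx3 and Tfdp1 were above Mga, although Tfdp1, at 47.6, 35.67 and 37.01 TPM, was below it in replicates 1 and 2. Wdr5, at 36.3, 28.88 and 20.07 TPM over all its transcripts, was below Mga but above the coding limit of Mga in each replicate. No coding limit was computed for Wdr5, so these are unlike measures, and they do not settle the place of Mga among its partners.

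The SIN3 corepressor, which MXD proteins and MNT recruit, had 15 of 15 genes at a mean TPM of at least 1, with a median log2(TPM + 1) of 3.44 ± 0.467 (SD, n = 3). Sin3a had 24.4 ± 9.16 and Sin3b 19.03 ± 2.20 TPM (SD, n = 3), both above every MXD gene and Mnt in each replicate. Hdac1 and Hdac2 are in both this list and that of PRC1.6. The MYC coactivators and partners had 15 of 15, with a median of 3.43 ± 0.443 (SD, n = 3), led by the ATPase gene Ruvbl2 at 40.4 ± 6.71 TPM, and with Zbtb17, whose product MIZ1 tethers MYC to repressed genes, lowest at 3.62 ± 0.614 TPM (SD, n = 3). The genes that control MYC protein turnover had 17 of 17, with a median of 3.75 ± 0.364 (SD, n = 3). Among them Huwe1, a ubiquitin ligase gene, had 35.1 ± 13.9 TPM, Gsk3b, the kinase that marks MYC for destruction and a target of GSK inhibitors, 6.20 ± 1.90, and Fbxw7, the ligase that reads that mark, 2.54 ± 0.576 TPM (SD, n = 3), the lowest of the list.

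Genes known to be activated by MYC proteins were high: 25 of 26 had a mean TPM of at least 1, with a median log2(TPM + 1) of 5.29 ± 0.292 (SD, n = 3). Npm1, a nucleolar protein gene, had 1146 ± 77.9 TPM, Ldha, lactate dehydrogenase, 155 ± 17.2, and Odc1, the first enzyme of polyamine synthesis, 80.9 ± 13.4 TPM (SD, n = 3). Ccnd2, a cyclin gene of the same list, was the exception at 0.347 ± 0.217 TPM, and Tert was next lowest at 2.73 ± 0.663 TPM (SD, n = 3). Such genes are high in most dividing cells, and with 1 condition nothing here ties their level to any member. Of 8 genes known to be repressed by MYC, 6 reached a mean TPM of 1, with a median of 2.22 ± 0.278 (SD, n = 3). Cdkn1a, a cell cycle inhibitor gene, had 13.8 ± 4.61 TPM, while Cdkn2b and Cdkn1c were under 1, at 0.243 ± 0.180 and 0.257 ± 0.0451 TPM (SD, n = 3).

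**Figure D5:**
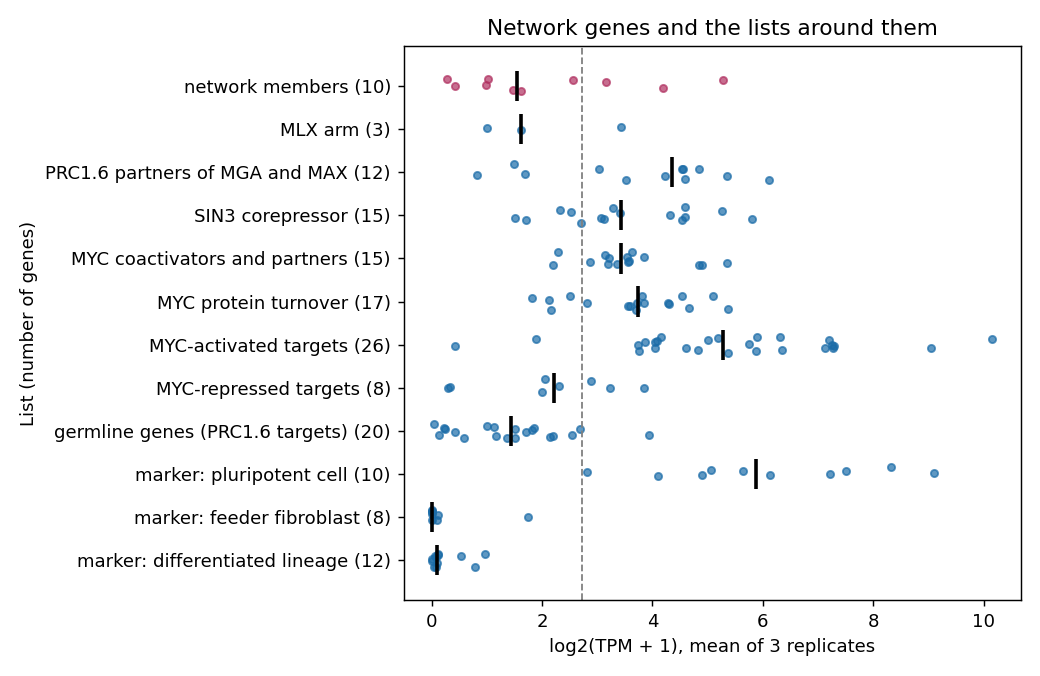
Mean log2(TPM + 1) of each gene (points), with the median of each list (black bars), for the network, the lists around it and the marker lists, and a dashed line at the median of expressed protein-coding genes, 2.72. The network's median is 1.55, that of the MYC-activated targets 5.29 and that of the germline genes 1.44.

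The germline genes that MGA, MAX and PRC1.6 are known to hold down had low to moderate levels. Of 20 genes, 14 had a mean TPM of at least 1, which is 70.0% beside 44.1% of protein-coding genes. Their median log2(TPM + 1) was 1.44 ± 0.125 (SD, n = 3), above the 0.53 ± 0.11 of all protein-coding genes and below the 2.72 of those with a mean TPM of at least 1. Dazl, an RNA-binding protein gene of germ cells, was highest at 19.15, 13.04 and 11.79 TPM, followed by the meiotic cohesin gene Stag3 at 5.87 ± 2.79 and Hormad1, a gene of meiotic chromosome axes, at 4.96 ± 1.51 TPM (SD, n = 3). Tdrd1 had the lowest mean TPM, with 4, 3 and 3 counts. Tex101 had 2, 1 and 3 counts, at or under the limit of 3 counts in each replicate. The promoter windows of these genes often held an E-box: 11 of 19 genes with a window, 57.9%, beside the 9.16% of protein-coding genes given above. A site of the E2F family, TTCCCGC or GCGGGAA, occurred in 8 of the 19, 42.1%, against 7.07% of protein-coding genes, and 5 held both, where 0.825% of protein-coding genes did. Among protein-coding genes with a mean TPM of at least 1, 12.7% held an E-box, 10.7% an E2F site and 1.31% both. The list was drawn from genes known as targets of these factors, so its shares describe that choice and were not tested. A T-box element, TCACACCT or AGGTGTGA, the motif of the other DNA-binding domain of MGA, occurred in 1 of the 19 genes, Sycp3, and in 1.38% of protein-coding genes.

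Windows of 3 of the 5 genes that held both are printed with the E-box and the E2F site in capitals, to show how the motifs stand together near the start; the others were Hormad1 and Stag3.
Ddx4, chr13:112652261-112652560, minus strand: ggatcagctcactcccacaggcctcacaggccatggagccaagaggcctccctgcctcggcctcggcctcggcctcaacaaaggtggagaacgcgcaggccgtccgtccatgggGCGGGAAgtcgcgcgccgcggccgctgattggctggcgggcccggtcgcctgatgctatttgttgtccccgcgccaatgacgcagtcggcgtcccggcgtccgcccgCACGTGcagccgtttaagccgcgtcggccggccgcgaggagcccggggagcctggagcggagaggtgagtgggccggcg
Slc25a31, chr3:40708621-40708920, plus strand: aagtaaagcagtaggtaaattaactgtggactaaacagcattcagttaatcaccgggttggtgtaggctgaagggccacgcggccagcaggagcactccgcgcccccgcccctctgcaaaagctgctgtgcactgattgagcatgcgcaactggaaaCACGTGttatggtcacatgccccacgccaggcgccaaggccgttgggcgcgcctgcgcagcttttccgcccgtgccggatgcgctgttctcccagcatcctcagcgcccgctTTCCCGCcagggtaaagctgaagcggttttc
Sycp3, chr10:88459337-88459636, plus strand: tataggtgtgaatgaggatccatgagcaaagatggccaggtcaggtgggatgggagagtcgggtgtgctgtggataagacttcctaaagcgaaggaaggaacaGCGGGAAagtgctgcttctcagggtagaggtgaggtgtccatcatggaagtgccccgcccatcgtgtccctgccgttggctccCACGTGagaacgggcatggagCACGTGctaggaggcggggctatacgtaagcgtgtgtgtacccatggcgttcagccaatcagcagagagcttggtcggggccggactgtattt
Ddx4, a germ cell RNA helicase gene, had 1.17, 1.21 and 0.70 TPM, with its E-box 29 bases upstream of the start. Slc25a31, a germ cell ADP/ATP carrier gene, had 0.54, 0.51 and 0.45 TPM, with its E-box 93 bases upstream. Sycp3, a gene of the synaptonemal complex, had 3.16, 2.60 and 1.94 TPM, with E-boxes 64 and 43 bases upstream. A relation between the E-box and level in this list was not tested. The 11 genes with an E-box had a median of 1.21 TPM and ran from 0.03 to 5.87. The 8 with a window but no E-box had a median of 2.07 TPM and ran from 0.103 to 14.7. The 2 ranges overlapped widely, and no binding of MGA or MAX was measured in these samples.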

How the data were processed

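Per the labels' protocols, RNA was DNase treated, ribosomal RNA was removed and the libraries kept strand. Per the submitters' processing notes, tools named for the series include STAR and RSEM, and the build is mm10; their versions, the annotation release and the strand setting are not given in the sources used here. Per the file headers, the authors' estimated count per gene was deposited without normalization, as 1 value over the transcripts listed with the gene, and the authors deposited TPM, length and effective length beside it. FPKM was not used. Symbols, transcripts and coordinates came from GENCODE vM21 (GRCm38, the same assembly as mm10), which matched 55227 of 55487 gene IDs.

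TPM was used as deposited, with mean ± SD over 3 replicates and log2(TPM + 1) for list medians. For edgeR 4.0.16 in R 4.3.3, counts were rounded and scaled by TMM, filtered by filterByExpr and fitted with an intercept alone and trended dispersion. The goodness-of-fit p was adjusted by Benjamini-Hochberg over all genes tested. In data simulated for this test, 50 genes per size were changed in 1 replicate. The simulation gave every gene the same dispersion and no trend with gene length, unlike the real data. A 2-fold change was called in 3 of them, a 4-fold change in 39, 8-fold in 42 and, lower again, 16-fold in 36, among 12279 genes tested. DESeq2 1.42.0 size factors were an alternative. Motifs were searched in RefSeq promoter windows of GRCm38.p6. Replicate pairs differed by more than counting noise (chi-square per degree of freedom 6.64 to 29.2).

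The members and lists were chosen with earlier results of these data known. The text names the 10 members, genes that overlap them and, from each list, the 3 highest and 2 lowest genes or, in short lists, any; further list genes were chosen after their values were seen. A result on the replicate spread of a list gene is not reported here.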

Additional observations from a re-analysis of the deposited data

How the results depend on the processing

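The number of members at a mean TPM of at least 1, which was 8, ran from 6 to 8 when each replicate was left out in turn. By CPM it was 10, but 1 CPM is a looser cutoff here, since each member's mean CPM exceeded its mean TPM. It was 8 with genes of effective length under 100 nt left out of the TPM total and 8 with the longest transcript as length. It fell to 5 when 1 TPM was asked of every replicate and to 4 at a mean TPM of at least 5. Overlapping neighbour pairs, 4 of 9, ran from 2 to 4 when each replicate was left out, since fewer values span a smaller range. The log2 ratio of antagonists to MYC paralogs, 2.20, ran from 2.12 to 2.24 over the leave-one-out values. It was 2.91 by CPM, which does not correct for the length of Mga, 0.954 with the longest transcript as length, and reversed to -0.177 without Mga. The log2 ratio of Max to its partners, -1.73, ran from -1.81 to -1.63 and was -3.64 by CPM. For this ratio a value without Mga was not computed. The count of members varying beyond the trend stayed at 0 under the 7 alternatives run with edgeR. The median log2(TPM + 1) of the 114 genes around the network, 3.46, ran from 3.31 to 3.63 over the leave-one-out values and was 4.83 with short genes left out of the TPM total, a rescaling that raises log2 TPM of all other genes by 1.33, 1.55 and 1.47 in replicates 1, 2 and 3. Depth limits Myc, Mxd3 and Mxd4, which had at most 44 counts in a library. No paired analysis was possible because only samples of 1 group were analysed, so replicate numbers pair nothing.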
